A study of Caenorhabditis elegans with 16 samples.

Results

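Small RNA of adult C. elegans males that carry PRG-1 without its PAZ domain (ΔPAZ) was compared with small RNA of males that carry a prg-1 null mutation. All libraries titled as one of these genotypes were taken, 3 of ΔPAZ and 5 of the null, 8 of the 16 libraries of the series. The 5 wild type libraries, and in places the 3 libraries of a prg-1 RNase mutant, serve as reference levels. Each library was made from whole animals, 20 to 30 males that were picked at mid-L4, kept at 25 °C and collected 24 hours later. The labels give no allele, no strain and no promoter or tissue restriction for the null and ΔPAZ genotypes, and they name no treatment. The comparison sets males whose PRG-1 lacks this domain against males with a null allele of the gene. Nothing in the labels says that replicates are separate cultures. The p-values thus reflect the scatter of these samples only, and some of it may be technical.

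PRG-1 is the Piwi-clade Argonaute of this worm and binds piRNAs, which are called 21U-RNAs because they are 21 nucleotides long and begin with U. Each 21U-RNA comes from its own small gene, and most of these genes lie in clusters on chromosome IV. Within an Argonaute, the 3′ end of the bound small RNA sits in the PAZ domain. In the germline, targets of PRG-1 become templates for secondary small RNAs (22G-RNAs) that other Argonautes bind, and these carry a 5′ triphosphate, so the pyrophosphatase treatment of these samples lets them enter the libraries.

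ΔPAZ libraries held 396813, 663498 and 954712 genome-mapped reads, fewer than any null library (1185732 to 2288967). Levels are given as reads per 1000000 genome-mapped reads (RPM), so 1 read is worth 1.05 to 2.52 RPM in ΔPAZ and 0.437 to 0.843 RPM in the null. Genome-mapped reads made up 41.8, 47.5 and 51.6% in ΔPAZ and 62.1, 67.3, 73.3, 82.3 and 80.0% of all reads in the null. Every ΔPAZ library was below every null library in this share (exact permutation p = 0.0357, adjusted p = 0.0893), which touches each level set per genome-mapped read. Wild type libraries had 39.8 to 68.3% (53.2 ± 12.4%, n = 5), a range that holds all ΔPAZ libraries and null replicates 1 and 2. Null replicates 4 and 5 stood apart from null replicates 1 to 3 in the bins with most reads, and ΔPAZ replicate 2 stood apart in bins with rRNA and microRNA genes. Some values without them are given below, but not for every call or value that turns on them. prg-1 messenger RNA is not measured in small RNA, so the genotypes rest on the titles of the libraries. The 21U-only reads are themselves a result here and are no separate check of the genotypes.

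Reads that the authors counted as 21U only, by a rule that the sources used here leave out, were many in ΔPAZ and few in the null. The 3 ΔPAZ libraries held 165, 249 and 1012 such reads, and the 5 null libraries held 17, 27, 39, 5 and 20. This is 416, 375 and 1060.0 RPM in ΔPAZ and 14.3, 15.7, 17.0, 2.64 and 10.9 RPM in the null. The groups did not overlap, and ΔPAZ replicate 3 was the highest of its group by a wide margin. The means were 617 ± 384 RPM (SD, n = 3) and 12.1 ± 5.77 RPM (n = 5), a ratio of 51.0, and 32.7 without ΔPAZ replicate 3. The exact two-sided permutation test gave p = 0.0357, the smallest that 3 against 5 libraries allow, and an adjusted p of 0.0893 over the 10 measures compared, none of which passed 0.05 after adjustment. Wild type males had 1266 ± 631 RPM (n = 5, range 484 to 2207), so the ΔPAZ mean was 0.487 of the wild type mean and ΔPAZ replicates 1 and 2 lay below the lowest wild type library.

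The make-up of the reads at piRNA loci differed in the same way. In ΔPAZ, 21U-only reads made up 64.0% (Wilson 95% interval 57.9 to 69.6), 54.0% (49.4 to 58.5) and 66.3% (63.9 to 68.6) of all sense reads. In the null they made up 4.93, 5.81, 6.44, 0.576 and 1.82%, with upper interval bounds of at most 8.68%. These intervals cover counting error only. The means were 61.4 ± 6.51% in ΔPAZ (n = 3) and 3.91 ± 2.57% in the null (n = 5; exact permutation p = 0.0357, adjusted p = 0.0893), and the wild type mean was 59.5 ± 9.81% (n = 5). This share does not depend on the number of genome-mapped reads.

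**Figure D1:**
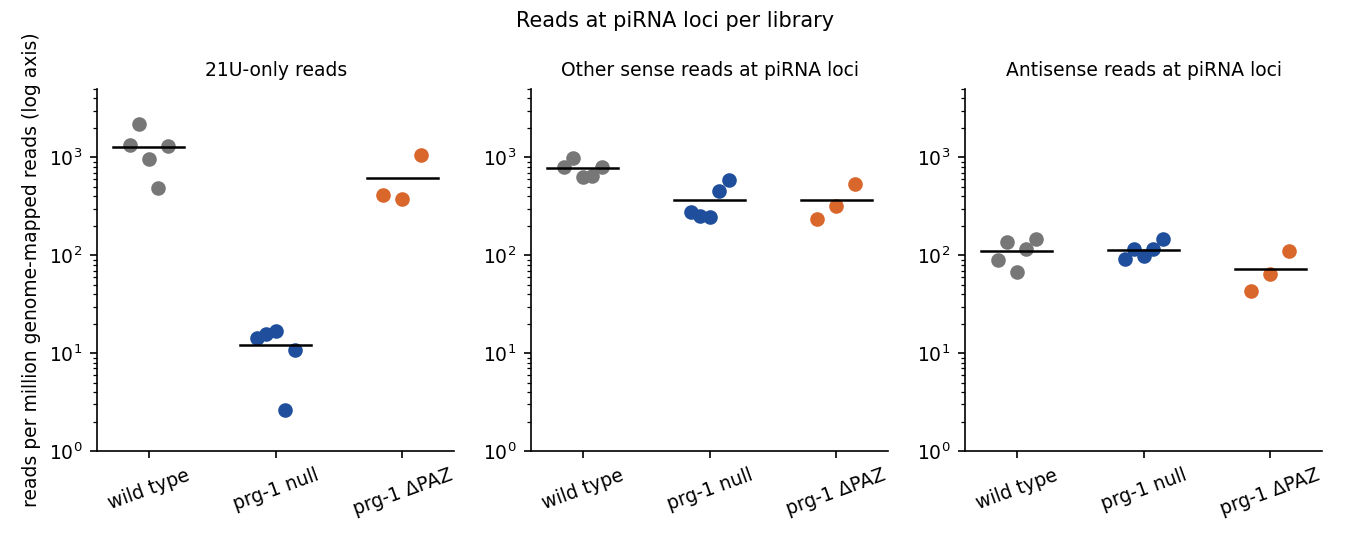
RPM (log axis) in each library, for 21U-only reads, other sense reads and antisense reads at piRNA loci; each point is 1 library and each line a group mean. The 3 ΔPAZ libraries (375 to 1060 RPM) lie above the 5 null libraries (2.64 to 17.0 RPM) for 21U-only reads, and the groups overlap for the other classes.

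The other sense reads at piRNA loci did not separate the genotypes. They were at 234, 319.5 and 539 RPM in ΔPAZ and 277, 254, 248, 456 and 588 RPM in the null, and the values interleave. The means were 364 ± 157 RPM (n = 3) and 364 ± 152 RPM (n = 5), with an exact permutation p of 0.964. Null replicates 4 and 5 were the 2 highest null libraries here. The wild type mean was 774 ± 149 RPM (n = 5).

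All sense reads together were higher in ΔPAZ, at 650.2, 695 and 1599 RPM against 291, 269.7, 265, 459 and 599 RPM in null males. Their means had a ratio of 2.61 (exact permutation p = 0.0357, adjusted p = 0.0893). Set against total reads, the ratio was 1.68 and the exact permutation p was 0.321, so this difference rests on the denominator. With that denominator 21U-only reads still gave an exact permutation p of 0.0357.

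Reads antisense to piRNAs stood at 42.8, 64.8 and 112 RPM in ΔPAZ and 91.1, 116, 99.6, 117 and 147 RPM in the null. ΔPAZ replicates 1 and 2 lay below all null libraries and replicate 3 within them, and the means of 73.2 ± 35.4 RPM and 114 ± 21.6 RPM gave an exact permutation p of 0.107. Wild type males had 111 ± 32.6 RPM (n = 5), near the null mean. For every 100 sense reads there were 7.64 ± 1.48 antisense reads in ΔPAZ (n = 3), 32.4 ± 7.88 in the null (n = 5) and 5.95 ± 2.65 in wild type (n = 5). This ratio also follows the sense reads, whose means were 981, 377 and 2039 RPM in ΔPAZ, null and wild type.

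Thinned to 396813 genome-mapped reads, 70, 86.1 and 199 piRNAs were expected with a read in ΔPAZ and 52.6, 51.2, 44.7, 88.6 and 122 in the null (exact permutation p = 0.321). All 3 ΔPAZ libraries lay above null replicates 1 to 3, and null replicates 4 and 5 overlapped ΔPAZ. The ratio of the means was 1.64, and it was 2.39 with null replicates 1 to 3 alone (exact permutation p = 0.1, the smallest possible), 1.12 with null replicates 4 and 5 alone and 1.09 without ΔPAZ replicate 3. Thinned to 258 piRNA reads the numbers were 70, 84.3 and 128 and 78.7, 89.8, 78.7, 112 and 129 (exact permutation p = 0.857). The 10 most read piRNAs took 43.4, 34.9 and 29.3% of piRNA reads in ΔPAZ and 49.6, 52.5, 59.6, 42.4 and 35.6% in the null (exact permutation p = 0.143). For the 100 most read the exact permutation p was 0.786, with shares of 75.6 to 100% in ΔPAZ and 75.4 to 100% in the null, where 100% belongs to libraries with at most 100 piRNAs seen.

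Single piRNAs were compared over replicates 1 to 3 of each genotype, because the columns of null replicates 4 and 5 were not matched to the names. The ΔPAZ columns do not follow the deposited order of names, and their names were assigned after the files were seen, by sorting the names alphabetically. Under that order ΔPAZ and null replicates 1 to 3 shared a detected piRNA 16.85 times as often as independent rows would, against 0.117 times in the deposited order and 0.936 to 3.51 times when the sorted rows were moved by 1 or 2. All values of single piRNAs rest on this order, which the files do not state. Of 333 piRNAs with a read in any ΔPAZ library, 241 were also seen in wild type replicates 1 to 3 (72.4% of the ΔPAZ list and 18.3% of the 1314 of wild type). With null replicates 1 to 3 they shared 69 (20.7% of the ΔPAZ list and 25.4% of the 272 of the null), and the piRNAs seen in the null took 45.3, 22.8 and 39.2% of the piRNA reads of ΔPAZ replicates 1 to 3. The wild type list is the longer of these, so the shares cannot be set against each other directly. Counted over pairs of libraries in the sorted order, sharing was 14.28 times that of independent rows with wild type and 16.85 times with the null. Most piRNAs had few reads, so a piRNA missing from a list may be present below this depth.

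The 10 piRNAs most read in wild type replicates 1 to 3 took 27.1 ± 4.44% of piRNA reads in ΔPAZ (n = 3) and 23.5 ± 2.16% in the null (n = 3). These 10 were at 209, 169 and 395 RPM in ΔPAZ and at 66.6, 58.6 and 68.6 RPM in the null. Nearly all of the null reads in this list belong to cel-piR-156 and cel-piR-1592. The 10 piRNAs most read in the null itself took 52.1 ± 4.59% of its piRNA reads and 6.83 ± 4.01% of those of ΔPAZ, a list chosen on the null libraries and given as a description.

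Of 55 piRNAs with at least 30 reads over wild type replicates 1 to 3, 16 were called between ΔPAZ and the null (edgeR quasi-likelihood test, adjusted p under 0.05; 29.1% of those tested). Of these, 15 were higher in ΔPAZ (27.3%) and 1 was lower (1.82%). cel-piR-6101, the piRNA with most reads in wild type, had 23, 12 and 145 reads in ΔPAZ replicates 1 to 3 and 0, 0 and 2 in the null. Its level was 76.0 ± 68.7 RPM in ΔPAZ, 0.450 of the wild type mean, and the ratio of summed counts to the null was 232 (exact 95% interval 63.4 to 1932, counting error only; adjusted p = 7.1e-08 by edgeR). cel-piR-733 had 11, 12 and 85 reads in ΔPAZ and 0, 1 and 0 in the null, a level of 44.9 ± 38.5 RPM that was 0.530 of the wild type mean (edgeR adjusted p = 2.3e-06). For both, all ΔPAZ libraries lay above all null libraries, and these calls alone among the 15 held in all 6 fits that left out 1 library.

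For 10 of the 15 the null had no read, so their folds are bounds against 3 counts over the null group (0.577 RPM). cel-piR-8248, with 4, 19 and 37 reads in ΔPAZ, was at least 51.6-fold higher. cel-piR-871, with 1, 39 and 9 reads, was at least 42.1-fold higher, and most of its reads were in ΔPAZ replicate 2. cel-piR-1350, with 12, 3 and 31 reads, was at least 39.6-fold higher. The others called higher were cel-piR-15599, cel-piR-11944, cel-piR-5432, cel-piR-4338, cel-piR-2586, cel-piR-5271, cel-piR-10817, cel-piR-13046, cel-piR-6735 and cel-piR-3751. Of these, cel-piR-5432, cel-piR-4338, cel-piR-2586, cel-piR-13046 and cel-piR-6735 had no read in 1 of the 3 ΔPAZ libraries, so ΔPAZ and null libraries were not apart. In ΔPAZ the 15 stood at 0.244 to 1.44 of their wild type means, and over the 55 the median of this ratio was 0.338. All 55 were chosen for high reads in wild type, so that ratio describes the list only.

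The count rests on ΔPAZ replicate 3, which holds most of the ΔPAZ piRNA reads. Without it 2 piRNAs were higher and 2 lower, and without null replicate 2 it was 8 higher and 1 lower. With all piRNA reads as the library size 9 were higher and 4 lower.

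The piRNA called lower was cel-piR-12706, which had 29, 56 and 91 reads in the null and none in the 3 ΔPAZ libraries. It was at least 22.7-fold lower in ΔPAZ (against 3 counts over the group, 1.49 RPM; edgeR adjusted p = 4.5e-05), although wild type held 23, 66 and 4 reads of it. cel-piR-156 had 22, 8 and 11 reads in ΔPAZ and 54, 70 and 126 in the null and was not called (adjusted p = 0.390). cel-piR-1592 was close in level, at 18.2 ± 3.94 RPM in ΔPAZ and 16.5 ± 5.14 RPM in the null (adjusted p = 0.953), with groups that overlap. On the antisense strand the locus of cel-piR-11304 had 2, 37 and 64 reads in the null and 0 in ΔPAZ and wild type replicates 1 to 3. These piRNAs were singled out after their values were seen.

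**Figure D2:**
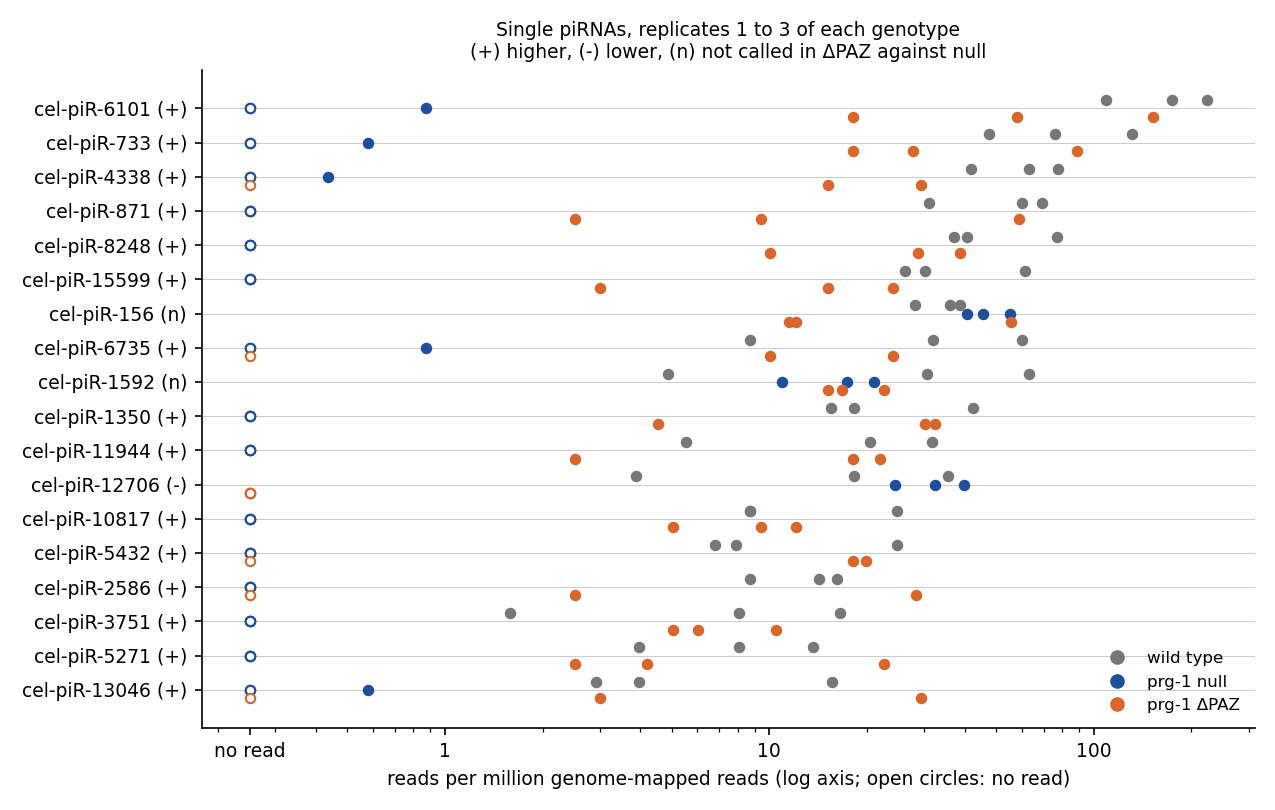
RPM (log axis) of the 16 piRNAs called between ΔPAZ and null, with cel-piR-156 and cel-piR-1592, in replicates 1 to 3 of wild type, null and ΔPAZ; open circles mark libraries with no read. Of the 15 piRNAs called higher, 10 have no read in any null library, and cel-piR-12706 has none in ΔPAZ.

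Across the genome, ΔPAZ and null males differed in many regions. Reads were counted in 1006 bins of 100 kb, and a bin holds many genes whose reads cannot be separated from each other or by strand. Of the 1006 bins 399 were called (edgeR quasi-likelihood test, adjusted p under 0.05, 39.7%), 176 higher in ΔPAZ (17.5%) and 223 lower (22.2%). With the 3 most read bins taken out of the library sizes, 281 were higher and 153 lower, and the median log2 fold change of all bins moved from -0.08 to 0.27. Which direction holds more bins therefore depends on the scaling, while all 399 bins kept their sign. In 342 of the 399 the 3 ΔPAZ libraries and the 5 null libraries did not overlap, beside 403 of all 1006 bins. The 399 were called for a difference between these same libraries, so this count is no separate support. Against wild type, ΔPAZ had 10 bins higher and 94 lower in the same fit, and the null 121 and 284. These comparisons share libraries and are given side by side only. The 3 ΔPAZ libraries were also fewer and less deep than the 5 null libraries. The counts therefore do not show which genotype is nearer to wild type.

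**Figure D3:**
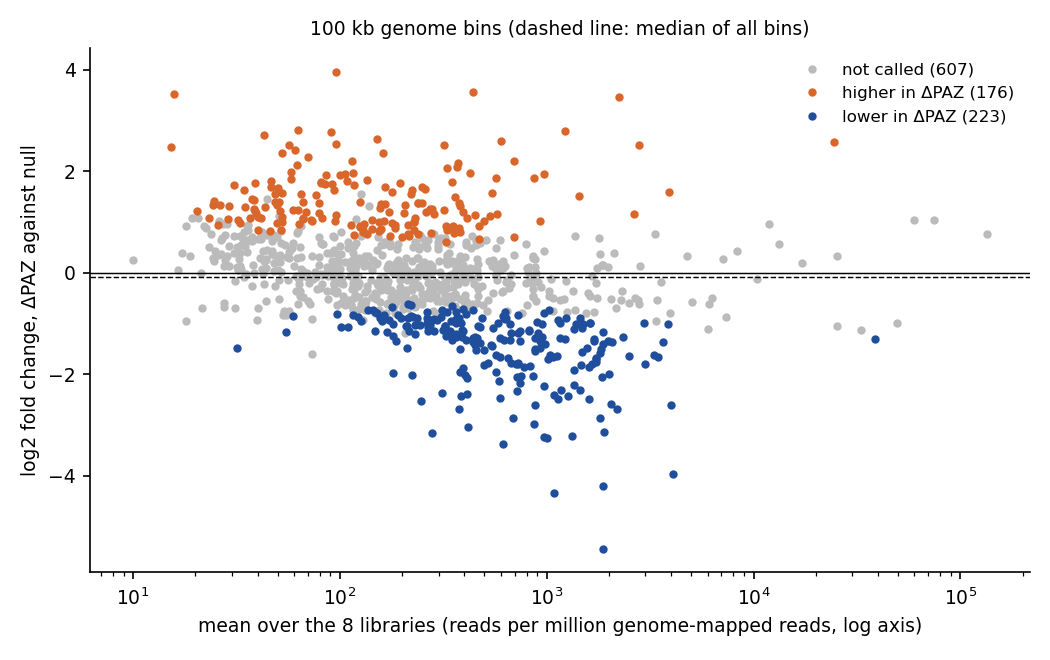
Log2 fold change of ΔPAZ against null for each 100 kb bin (vertical axis) by its mean level over the 8 libraries (RPM, log axis), coloured by call. Of the 223 bins lower in ΔPAZ 121 are among the 252 bins with most reads, and of the 176 higher 74 are among the 252 with fewest.

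Regions with many reads in the null and few in ΔPAZ showed the largest differences. Chromosome V 200001 to 300000 (WBcel235, the assembly of the ce11 files), which holds 18 protein-coding genes and no piRNA gene, was at 50.4, 72.3 and 79.6 RPM in ΔPAZ. In the null it was at 2282, 2752, 2758, 3449 and 3512 RPM, far above every ΔPAZ library (adjusted p = 1.4e-10, log2 fold change -5.43 with SE 0.34). Wild type libraries had 90.8 to 120.3 RPM, so ΔPAZ lay below wild type and the null far above it.

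Chromosome III 10300001 to 10400000, with 24 protein-coding genes, was at 58.0, 79.9 and 110.0 RPM in ΔPAZ and 1257 to 2036 RPM in the null (adjusted p = 7.3e-08, log2 fold change -4.33 with SE 0.39). Chromosome IV 3300001 to 3400000 was at 108, 184 and 176 RPM and 2051 to 3706 RPM (adjusted p = 1.3e-07, log2 fold change -4.20 with SE 0.41). Chromosome I 14800001 to 14900000 was at 350.3, 383 and 489 RPM and 5212 to 7358 RPM (adjusted p = 7.3e-08, log2 fold change -3.95 with SE 0.36). In each of these bins the ΔPAZ values fell between the lowest and highest wild type library.

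Further large falls lay on chromosomes IV and II. Adjacent bins IV 2700001 to 2800000 (155 ± 4.53 RPM in ΔPAZ, n = 3, and 1461 ± 228 RPM in the null, n = 5) and IV 2800001 to 2900000 (log2 fold change -3.21) belong to a run of 3 neighbouring bins called lower. Within piRNA cluster 1, IV 6200001 to 6300000 had a log2 fold change of -3.37 and IV 5600001 to 5700000, with 143 piRNA genes and mir-4815, had -3.26. On chromosome II, II 12400001 to 12500000 had -3.15 and II 10900001 to 11000000 had -3.13, the latter at 302, 312 and 356 RPM in ΔPAZ and 2588 to 3230.1 RPM in the null. All 10 of these falls held in each of the 8 fits that left out 1 library.

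Of the 10 largest rises 6 were on chromosome X. This chromosome holds 178 of the 1006 bins and 51 of the 176 called higher, and 136 of its bins are among the 252 with fewest reads. Chromosome X 200001 to 300000, with 10 protein-coding genes, 14 pseudogenes and mir-258.2, was at 186, 206 and 299.6 RPM in ΔPAZ and 16.9, 23.8, 11.4, 9.52 and 13.0 RPM in the null (adjusted p = 3.8e-08, log2 fold change 3.96 with SE 0.34). Wild type had 340.3 to 732 RPM, above all ΔPAZ libraries, and the RNase mutant 8.20 ± 3.33 RPM. The RNase mutant was not near the null in every named bin. It was at 92.0 ± 18.3 RPM in IV 3300001 to 3400000 (null mean 2891 RPM) and at 3026 ± 597 RPM in II 10900001 to 11000000 (null mean 2833 RPM). Chromosome X 200001 to 300000 ends a run of 3 bins from X 1 to 300000 that were all called higher. Their summed level was 353 ± 74.8 RPM in ΔPAZ, 34.6 ± 13.8 RPM in the null and 705 ± 250 RPM in wild type. The neighbour X 100001 to 200000 had 85.7, 66.3 and 119 RPM in ΔPAZ and 7.07 to 32.9 RPM in the null (adjusted p = 9.3e-05, log2 fold change 2.72 with SE 0.46).

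Chromosome X 16700001 to 16800000 was at 217, 176 and 187 RPM in ΔPAZ and 12.7 to 49.8 RPM in the null (adjusted p = 1.5e-06, log2 fold change 2.77 with SE 0.33), and wild type at 454 ± 105 RPM. Chromosome X 17700001 to 17800000 had few reads, 20.2, 55.8 and 34.6 RPM in ΔPAZ and 1.75 to 5.80 RPM in the null (log2 fold change 3.52). Chromosome X 7100001 to 7200000, with mir-4811, had 1071, 4299.9 and 2563 RPM and 175 to 602 RPM (log2 fold change 2.80). Chromosome X 2100001 to 2200000 was high in ΔPAZ replicate 2 alone, at 30.2, 342 and 35.6 RPM, and without that library its log2 fold change of 2.81 became 0.77 and lost the call (adjusted p = 0.153).

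Outside chromosome X, IV 16400001 to 16500000, in piRNA cluster 2 with 193 piRNA genes, was at 204, 307 and 437 RPM in ΔPAZ and 41.3 to 60.8 RPM in the null (adjusted p = 4.1e-07, log2 fold change 2.63 with SE 0.28). Chromosome III 8700001 to 8800000 was at 960.1, 1067 and 1754 RPM and 159 to 309.7 RPM (adjusted p = 1.5e-06, log2 fold change 2.59 with SE 0.31). In both, ΔPAZ averaged 0.515 and 0.508 of wild type. Chromosomes I 12300001 to 12400000 and IV 1400001 to 1500000 had ΔPAZ means above wild type: the former was at 2169.8, 681 and 241 RPM in ΔPAZ and 52.0 to 105 RPM in the null (log2 fold change 3.56), and the latter at 993, 5980.4 and 8636 RPM and 338 to 783 RPM (3.47). The ΔPAZ libraries spread widely in both, with replicate 1 highest in the first and lowest in the second.

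**Figure D4:**
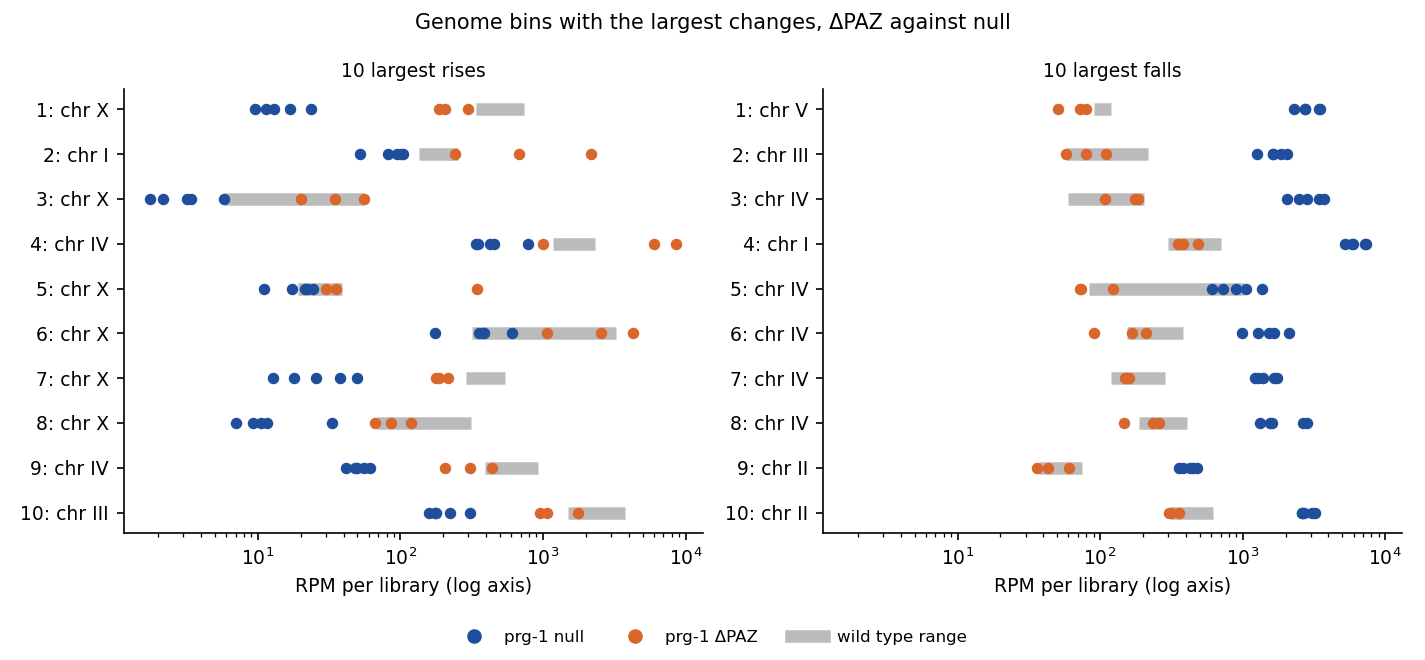
Level in each library (RPM, log axis) of the 10 bins with the largest rises and the 10 with the largest falls in ΔPAZ against null, in order of fold change and marked by chromosome; grey bars span the 5 wild type libraries. In all 10 falls the ΔPAZ points lie within or below the wild type bar, and the null points lie above the bar except in the fifth, where some lie within it.

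Rises outnumbered falls on chromosome X. Of its 178 bins 51 were higher (28.7%) and 5 lower (2.81%), with a median log2 fold change of 0.51, against 17.5% and 22.2% and a median of -0.08 over all bins. Most of these bins hold few reads: 136 of the 178 belong to the 252 bins with fewest reads. Within those 252, 43 of the 136 bins of chromosome X were higher, beside 74 of all 252. Outside them it was 8 of 42 on chromosome X and 102 of all 754. The read levels are means over the same libraries that the calls compare, and no test was made of chromosome X at matched read level. Its median was 0.47 with null replicates 1 to 3 alone and 0.72 with null replicates 4 and 5 alone.

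Of the 138 bins of chromosome III 18 were higher (13.0%) and 41 lower (29.7%), with a median of -0.44. Of the 151 of chromosome I it was 13 (8.61%) and 47 (31.1%; median -0.31), of the 153 of chromosome II 26 (17.0%) and 44 (28.8%; -0.20) and of the 210 of chromosome V 38 (18.1%) and 46 (21.9%; -0.07). The balance turned with the scaling: with the 3 most read bins taken out of the library sizes, the higher and lower bins were 34 and 26 on chromosome III, 39 and 32 on II and 57 and 28 on V, and 32 and 37 on I, with medians of -0.09 on III and of 0.07, 0.17 and 0.28 on I, II and V. Without ΔPAZ replicate 2 chromosome III had 27 bins lower, and without ΔPAZ replicate 3 chromosome I had 8 higher. Chromosome I had 20 higher without null replicates 4 and 5, and 4 higher with these 2 alone as the null.

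The piRNA clusters of chromosome IV differed in their counts. Cluster 2, the distal one with 37 bins and 11388 piRNA genes, had 14 bins higher and 5 lower, 37.8% and 13.5%, and 18 not called. Its median log2 fold change was 0.08, so the rises were offset by bins that were lower or level, and the median was negative (-0.11 at the lowest) in some of the fits that left out 1 library. Cluster 1, with 25 bins and 2816 piRNA genes, had 1 bin higher and 6 lower (4% and 24%), with a median of -0.43. Over all bins it was 17.5% and 22.2%. Of the 113 bins of chromosome IV outside the clusters 13.3% were higher and 25.7% lower, with a median of -0.31. The difference between the clusters was not tested, and they differ in read level. The 252 bins with fewest reads, of which 29.4% were higher and 1.19% lower, include 15 bins of cluster 2 and 1 of cluster 1. Of the 14 rises of cluster 2, 7 are among them. With the 3 most read bins taken out of the library sizes, higher and lower bins were 17 and 2 in cluster 2 and 3 and 5 in cluster 1. A run of 5 neighbouring bins in cluster 2, IV 15100001 to 15600000, was higher throughout, with summed levels of 766 ± 298 RPM in ΔPAZ, 257 ± 56.4 RPM in the null and 1088 ± 236 RPM in wild type.

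Among the 3 most read bins of cluster 2, 1 was lower in every fit with a library left out. Chromosome IV 14700001 to 14800000, with 252 piRNA genes, was at 534, 732 and 908 RPM in ΔPAZ and 1860.2 to 2936 RPM in the null (adjusted p = 0.000797, log2 fold change -1.68 with SE 0.36). Chromosome IV 13600001 to 13700000, with 221 piRNA genes and 3 snRNA genes, was also lower (-1.01, adjusted p = 0.0129), but not without ΔPAZ replicate 2 or 3 (adjusted p 0.0568 and 0.0677), nor with the 3 most read bins taken out of the library sizes (-0.63, adjusted p = 0.0844). Chromosome IV 14000001 to 14100000, with 298 piRNA genes and mir-52, had -0.72 and was not called (adjusted p = 0.0581). Without ΔPAZ replicate 2, 2 bins of cluster 2 were called lower in place of 5, and without null replicates 4 and 5 it was 3. Of the most read bins of cluster 1, IV 5500001 to 5600000, IV 4700001 to 4800000 and IV 5000001 to 5100000, none was called (log2 fold changes -1.04, 0.19 and -0.59), though the first was with null replicates 1 to 3 alone as the null (-1.33, adjusted p = 0.0449).

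Bins with genes of other RNA classes held calls in both directions, except those of rRNA, which held 1 call only. Of 182 bins with microRNA genes 25 were higher (13.7%) and 50 lower (27.5%), beside 17.5% and 22.2% of all bins. Without ΔPAZ replicate 2 the lower count was 33, and without ΔPAZ replicate 3 the higher count was 15. Of 297 bins with tRNA genes 17.8% were higher and 17.8% lower, of 274 with snoRNA genes 14.2% and 24.5%, and of 68 with snRNA genes 14.7% and 26.5% (18 lower, and 9 without ΔPAZ replicate 2), near the shares of all bins. With the 3 most read bins taken out of the library sizes, higher bins outnumbered lower ones in each of these lists, with 45 and 34 for microRNA, 92 and 36 for tRNA, 73 and 50 for snoRNA and 19 and 10 for snRNA genes. Of 5 bins with rRNA genes 0 were higher and 1 lower, and it was 1 and 1 with those library sizes and with DESeq2. The 5 bins took 14.3, 33.5 and 16.6% of genome-mapped reads in ΔPAZ and 6.25 to 18.4% in the null. Of 16 bins with Argonaute genes 2 were higher and 5 lower. Histone bins (3 higher and 2 lower of 17) and bins of major sperm protein genes (2 and 1 of 15) held few calls, and without ΔPAZ replicate 2 none of either was called higher. The 553 bins with a piRNA gene had 99 higher and 111 lower, and the 453 without had 77 and 112.

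**Figure D5:**
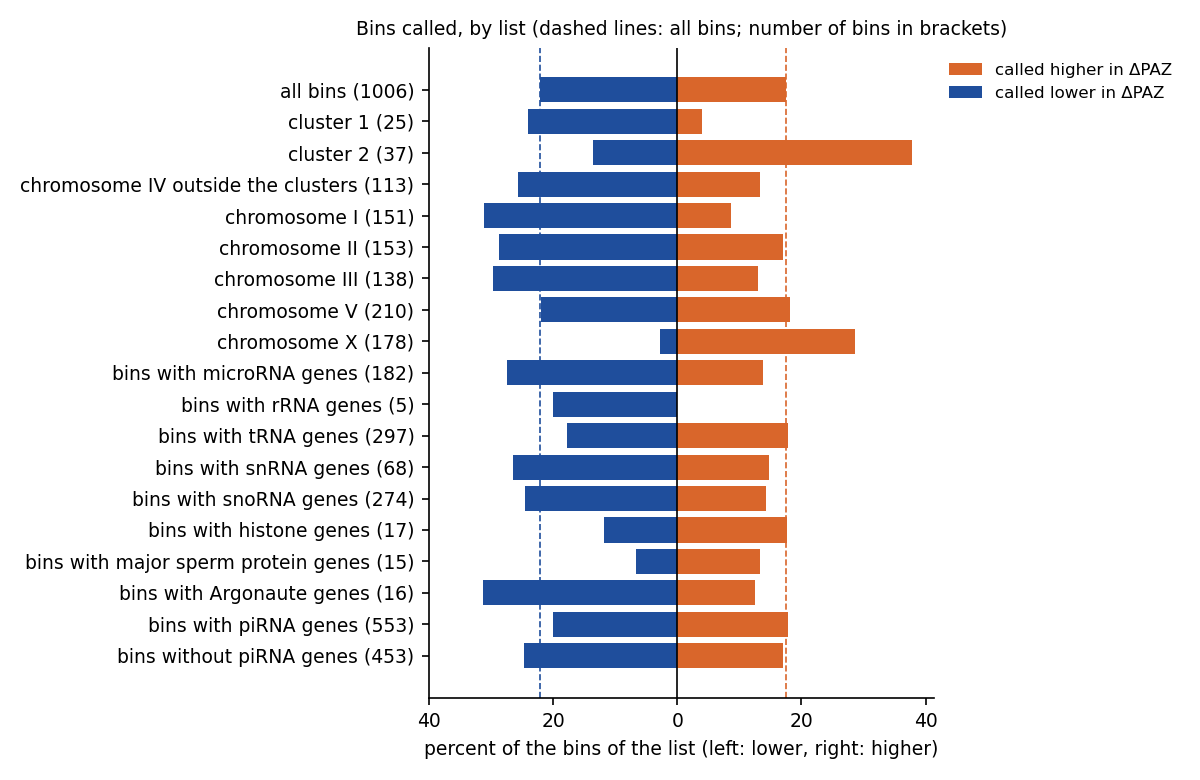
Percent of bins called higher (right) and lower (left) in ΔPAZ against null for each list of bins, with the number of bins in brackets and dashed lines for all bins (17.5 and 22.2%). Cluster 2 has 37.8% of bins higher and 13.5% lower, chromosome X 28.7% and 2.81%, and chromosome I 8.61% and 31.1%.

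Bins that hold microRNAs known for a tissue or stage were examined as markers of the animals' cells and stage, though a bin's reads may come from its other genes. All 14 such bins had reads in all 8 libraries. The bin of lin-4 (developmental timing) was lower in ΔPAZ, at 433, 119 and 394 RPM against 427 to 1189.6 RPM (log2 fold change -1.28, adjusted p = 0.0131; 0.0901 without ΔPAZ replicate 2). The bin of mir-83 (ageing gonad and other tissues) was lower, at 211 ± 28.9 RPM (n = 3) against 404 to 559.7 RPM (-1.22, adjusted p = 0.000763), in all 8 fits that left out 1 library.

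The bin of mir-124, of neurons, was lower (-0.89, adjusted p = 0.0136; 0.0828 without ΔPAZ replicate 1), as was that of lsy-6, also of neurons (-0.84, adjusted p = 0.0340; called in 3 of 8 fits with 1 library left out). The bin of mir-48 and mir-241, of the let-7 family, was lower (-0.996, adjusted p = 0.0270; 0.163 without ΔPAZ replicate 2). That of mir-80 was lower (-1.31, adjusted p = 0.0484; called in 3 of 8). The bin of mir-61 was higher, at 431, 779 and 800.2 RPM against 256 to 445 RPM (0.92, adjusted p = 0.0194; 0.0890 without ΔPAZ replicate 2 and 0.0841 without replicate 3). With the 3 most read bins taken out of the library sizes, the mir-124, lsy-6, mir-48 and mir-241, and mir-80 bins were not called (adjusted p 0.0766, 0.180, 0.0849 and 0.107). The bins of mir-1 (muscle), mir-35 (germline and embryo), let-7, mir-84, mir-71, mir-58.1 and mir-228 (glia) were not called, with log2 fold changes of 0.28, 0.17, -0.05, 0.36, -0.77, -0.15 and -1.04. With null replicates 4 and 5 alone as the null, only the mir-83 bin among the 7 called was called. The part of these marker bins in the other results was not tested. In whole animals, fewer cells of a type and less RNA per cell cannot be told apart.

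Among the 8 bins with most reads over the 8 libraries only that of mir-80 was called. Chromosome IV 12700001 to 12800000, with 4 snRNA genes, was at 267489, 122786 and 154191 RPM in ΔPAZ and 195465, 128151, 148425, 20831 and 39427 RPM in the null. Here null replicates 4 and 5 were far below the other null libraries, and with them alone as the null the bin was called higher in ΔPAZ (2.59, adjusted p = 0.0156). The same was seen at IV 9300001 to 9400000 (2.78, adjusted p = 0.00831) and IV 4700001 to 4800000 (2.45, adjusted p = 0.0122). With null replicates 1 to 3 alone the log2 fold changes of these bins were 0.21, -0.29 and -0.42, and none was called. Chromosome V from 17100001, a bin with 14 rRNA genes and 12 snRNA genes, showed the reverse: null replicates 1 to 3 were at 13084 to 19296 RPM and null replicates 4 and 5 at 83372 and 78969.9 RPM, beside 72664, 102591 and 86824 RPM in ΔPAZ. With null replicates 1 to 3 alone it was called higher (2.37, adjusted p = 0.0312). Chromosome I 15000001 to 15100000, with 4 rRNA genes, was at 51419.7, 215402 and 61897 RPM in ΔPAZ, highest in replicate 2, and at 35523 to 78718 RPM in the null (adjusted p = 0.130, and 0.0206 by DESeq2). Without ΔPAZ replicate 2 its log2 fold change fell from 1.04 to 0.0859 (adjusted p = 0.914), so the difference rests on that library. Chromosome II 7800001 to 7900000 with mir-57 and X 2400001 to 2500000 (mir-81, mir-82) had log2 fold changes of -0.99 and -1.13 and were not called by edgeR (adjusted p = 0.105 and 0.0572) but were by DESeq2 (0.0436 and 0.0136).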

How the data were processed

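Small RNA of whole adult males was extracted with a mirVana kit, treated with pyrophosphatase and made into TruSeq small RNA libraries, per the labels' protocols. The submitters' processing notes name cutadapt 3.7 and FastQC 0.12.0. The sources used here do not give the aligner or the rule by which reads count as 21U only. The authors deposited read counts per library, per piRNA name (sense and antisense) and per 100 kb bin of ce11, per the file headers. RPM was computed here from these counts with genome-mapped reads as denominator.

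In the piRNA table the ΔPAZ columns begin with their total, which was removed, and the values fit an alphabetical order of names, which no source states. In each of 10 equal stretches of the sorted list, more piRNAs were shared with wild type than after a move by 1 or 2 rows. Columns of null replicates 4 and 5 were used only for sums and for counts that need no names. Gene annotation came from WBcel235 in Ensembl release 115, and the RefSeq table for WBcel235 gave the places of let-7 and mir-58.1.

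Single measures were compared by exact two-sided permutation tests (scipy 1.17.1), adjusted by Benjamini-Hochberg over 10 measures. Bins and piRNAs were tested with edgeR 4.0.16 in R 4.3.3 (quasi-likelihood, genome-mapped reads as library size, Benjamini-Hochberg adjusted p under 0.05). Bins used all 16 libraries and were kept with 10 reads or more in 3 or more libraries; piRNAs used 6 libraries. The fits were tested on simulated data. Alternatives were DESeq2 1.42.0, other scalings and filters, a replicate block and libraries left out. No 2 libraries of the null and no 2 of ΔPAZ agreed within sampling noise (lowest ratio of chi-square to degrees of freedom 41.2). Named bins are the 10 largest rises and 10 largest falls among called bins whose groups do not overlap, the 8 with most reads, the marker microRNA bins and the 3 with most reads in each cluster. Members and lists were chosen with earlier results of these data known. The filter on piRNAs was chosen after the files were seen, and piRNAs were named after their values were seen.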

Additional observations from a re-analysis of the deposited data

Results flagged for a closer look

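Single null libraries stood far from the other 4 in 3 of the 45 named bins, by the size of the gap relative to the range of the group, and in 0 of the 10 measures. Chance alone gives such a gap in about 1 in 20 groups, and 3 of the 55 groups looked at is near that share. In chromosome IV 1400001 to 1500000 null replicate 5 was at 783 RPM and the others at 338 to 452 RPM, and all ΔPAZ libraries were higher still. In chromosome X 100001 to 200000 null replicate 1 was at 32.9 RPM and the others at 7.07 to 11.6 RPM. In chromosome IV 5000001 to 5100000 null replicate 3 was at 2155 RPM and the others at 2880 to 3125 RPM. Groups of 3, such as ΔPAZ, were not examined in this way.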

How the results depend on the processing

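No called bin or piRNA turned its direction under the alternatives run. Of the measures with an unadjusted p over 0.05, other sense reads had ratios of 0.642 (total reads) to 1.40 (null replicates 1 to 3 alone) around 1.00, and piRNAs seen at equal piRNA reads 0.781 to 1.14. Bins called numbered 302 to 480 over the 17 alternatives, against 399, and all 399 kept their sign in each fit in which they were tested. Bins called higher moved by over 1.5 times with the 3 most read bins taken out of the library sizes (281) and without null replicates 1 to 3 (114, an alternative added after seeing the data). The smaller library sizes moved list medians upward: cluster 1 -0.0405, cluster 2 0.41, the rest of chromosome IV 0.0480, chromosomes I 0.0654, II 0.17, III -0.0896, V 0.28 and X 0.86. Likewise bins with genes of microRNA were at 0.10, rRNA 0.65, tRNA 0.34, snRNA 0.42, snoRNA 0.24, histones 0.41, Argonautes 0.23 and piRNAs 0.26, bins without piRNA genes at 0.28, and 4 equal classes of bins from fewest to most reads at 0.85, 0.23, 0.16 and -0.45. TMM factors gave 0.38 for rRNA bins and 0.56 for the class with fewest reads. With 1 library left out the medians ranged from 0.42 to 0.62 for chromosome X, 0.0859 to 0.33 for rRNA bins and 0.43 to 0.56 for the class with fewest reads.

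piRNAs called higher and lower were 9 and 4 with all piRNA reads as library size, 36 and 2 with wild type in the fit, 2 and 3 with a count of at least 10 in 3 libraries (7 tested) and 5 higher with the replicate block. With 1 library left out they ranged from 2 to 18 higher and from 1 to 2 lower. DESeq2 gave 15 and 1.

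The ratio of ΔPAZ to null was 1.68 for all sense reads with total reads as denominator. Without null replicates 4 and 5, and with the replicate block, it was 3.57 for all sense reads, 39.4 for 21U-only reads, 10.7 for the 21U-only share and 0.695 for the mapped share. Without null replicates 1 to 3 it was 1.86, 91.3, 51.3 and 0.579. With 1 library left out these ranged from 1.79 to 3.06, 32.7 to 60.9, 12.9 to 18.7 and 0.612 to 0.679. None of these designs except the change of denominator can reach an exact p under 0.05: the smallest possible are 0.1, 0.25 (pairs), 0.2, and 0.0571 or 0.0952. Same-numbered ΔPAZ and null libraries deviated together only weakly (correlations 0.0823, 0.150 and 0.0816), so the numbers were not taken to pair the samples, although each library correlated best with its own number. With the block 336 bins were called, 171 higher and 165 lower, 299 of them among the 399. The cause of these changes was not tested. Depth limits ΔPAZ replicates 1 and 2 most, where 1 read is worth 2.52 and 1.51 RPM.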

Other observations

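Several called bins lay next to each other, a description that was not compared with what neighbours share by chance. On chromosome X, 4 neighbouring bins from 12300001 to 12700000 were higher in ΔPAZ, with a summed level of 354 ± 100 RPM (n = 3) against 114 ± 19.9 RPM in the null (n = 5) and 225 ± 78.4 RPM in wild type (n = 5). On chromosome II, 3 bins from 2900001 to 3200000 were higher, at 2879 ± 457 RPM against 1099 ± 248 RPM, with wild type at 2748 ± 505 RPM. On chromosome III, 5 bins from 9100001 to 9600000 were lower, at 1998 ± 566 RPM against 4778 ± 676 RPM, with wild type at 2945 ± 809 RPM. On chromosome V, 3 bins from 17300001 to 17600000 were lower, at 1067 ± 249 RPM against 3377 ± 159 RPM, with wild type at 1215 ± 391 RPM.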
